A study of Mus musculus with 8 samples.

Results

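The genes of the prostaglandin and leukotriene pathway followed here, in the ipsilateral hemisphere of mice after brain ischemia and injection of PACAP38, are *Pla2g4a*, *Ptgs1*, *Ptgs2*, *Ptges*, *Ptgds*, *Ptgis*, *Ptger2*, *Ptger4*, *Alox5* and *Alox5ap*. All 15 probes that carry the name of one of these 10 genes were taken, out of 41174 probes and 28786 gene symbols on the array. No probe of these genes was left out for its values, but the genes were chosen with earlier results of these data known. *Alox5* had 3 probes, *Pla2g4a*, *Ptgs2* and *Ptger4* had 2 each, and the other genes had 1 probe. For a gene with several probes, the brightest on average is called the first probe.

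Both branches of the pathway start from arachidonic acid, which the cytosolic phospholipase Pla2g4a releases from membranes. The cyclooxygenases Ptgs1, mostly constitutive, and Ptgs2, mostly inducible, turn it into prostaglandin H2, from which the terminal synthases make prostaglandin E2 (Ptges), prostaglandin D2 (Ptgds) and prostacyclin (Ptgis). Ptger2 and Ptger4 are receptors of prostaglandin E2 that couple to adenylate cyclase. In the other branch Alox5, the 5-lipoxygenase of myeloid cells, makes leukotriene A4 with the help of its membrane partner Alox5ap. In the brain Ptgs2 is known as a gene of active neurons that is also induced in inflammation and ischemia, and Ptgds is an abundant product of oligodendrocytes, meninges and choroid plexus.

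Male C57BL/6J mice of 8 to 12 weeks had a sham operation or a permanent occlusion of the middle cerebral artery by an intraluminal filament (PMCAO). They were given 1 pmol of PACAP38 in 1 μL, or 1 μL of saline, into the cerebral ventricle, and were taken after 6 h or 24 h. The right hemisphere, without olfactory bulb and cerebellum, was the ischemic side, and the injection was on the left. Total RNA of 3 mice, 300 ng each, was pooled for each of 8 groups (sham or PMCAO, with saline or PACAP38, at either time), and PMCAO mice were chosen for intermediate neurological grades. Each pool of PACAP38 was hybridized against its pool of saline on 2 arrays with the dyes Cy3 and Cy5 exchanged, which gave 8 arrays and 16 channels. The 2 arrays of a comparison carry the same RNA, so that each comparison has 1 replicate, its 2 values show technical spread, and a single pair of pools allows no test. Tests were run over the pools of both times together, and none within one time. Time and slide cannot be told apart, because the 6 h arrays came from 1 slide and the 24 h arrays from a different one. In hemisphere RNA, fewer cells of a type and less RNA per cell cannot be told apart.

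One array stood apart, and the results that rest on it are given with and without it. This was the array of sham at 6 h that carried PACAP38 in Cy3, and it had 10.7% of its spots marked as outliers, against 0.323% to 3.09% on the others. Over 17639 probes well above background in all channels, its channel signals had a correlation of 0.81 to 0.877 with those of the other arrays, which had 0.945 to 0.995 among themselves. It enters PACAP38 over saline in sham at 6 h, and both comparisons of PMCAO with sham at 6 h. Without it, each of these rests on 1 array of sham, that with PACAP38 in Cy5, set against the PMCAO array with the same dyes. All 5 neuronal and all 7 microglial markers were well above background in all 16 channels, as the tissue label implies, and *Camp* was the marker of neutrophils, of 8, that passed in no channel.

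A probe is called upregulated above 1.5-fold and downregulated below 0.75-fold, the thresholds of the study. A log2 difference of 1 is a doubling, and levels are log2 signals after normalization, comparable between pools for 1 probe but not between probes.

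The probes of the cyclooxygenase, of the E2 synthase and of the 5-lipoxygenase carry most of the results below, and the 30 bases shown for each identify what was hybridized. Each probe has 60 bases. Coordinates are those of the array files, on build mm7, and no gene annotation of that build was used here. The 2 probes of *Ptgs2* lie apart on chr1 (chr1:150033228-150033287 and chr1:150032900-150032959, plus strand) and share no stretch over 6 bases, so they are separate readings of one transcript. The *Ptges* probe lies at chr2:30899629-30899688 on the minus strand, and that of *Alox5ap* at chr5:148181223-148181282 on the plus strand. The first and second probes of *Alox5*, at chr6:116436021-116436080 and chr6:116435981-116436040 on the minus strand, overlap by 20 bases, shown in capitals. The second probe of *Ptger4*, at chr15:5031549-5031608, lies outside the span of the first (chr15:5059293-5059352) and names another transcript in the files. It was well above background in 0 of 16 channels, and gives no value for *Ptger4*.
Ptgs2 first probe, first 30 bases: tttttgaaaagtttgaagttagaacttagg
Ptgs2 second probe, first 30 bases: ctgaagaattgctttcttacttaaaaacaa
Ptges, first 30 bases: gccacttacagatgagctgtcaagatttga
Alox5ap, first 30 bases: agagacgcatcataacgcaatgccgcgaag
Alox5 first probe, last 30 bases: ctttattctaTTTATGCTTCCTCCAATTGC
Alox5 second probe, first 30 bases: TTTATGCTTCCTCCAATTGCttgcatagag

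The cyclooxygenase *Ptgs2* had its highest levels in PMCAO at 6 h, and PACAP38 was above saline there and below saline at 24 h. Its level on the first probe at 6 h was 8.46 and 9.64 in sham with saline (Cy3 and Cy5), 9.77 and 8.17 in sham with PACAP38, 9.78 and 10.44 in PMCAO with saline, and 10.82 and 10.77 in PMCAO with PACAP38. In sham at 6 h, the 9.64 and the 9.77 are those of the array that stands apart. At 24 h its level was 7.25 and 7.68 in sham with saline, 7.37 and 7.65 in sham with PACAP38, 8.95 and 9.10 in PMCAO with saline, and 7.96 and 8.38 in PMCAO with PACAP38. At both times all 4 channels of PMCAO were thus above all 4 channels of sham, though at 6 h only just, and at 24 h those of PMCAO with saline were the highest.

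**Figure D1:**
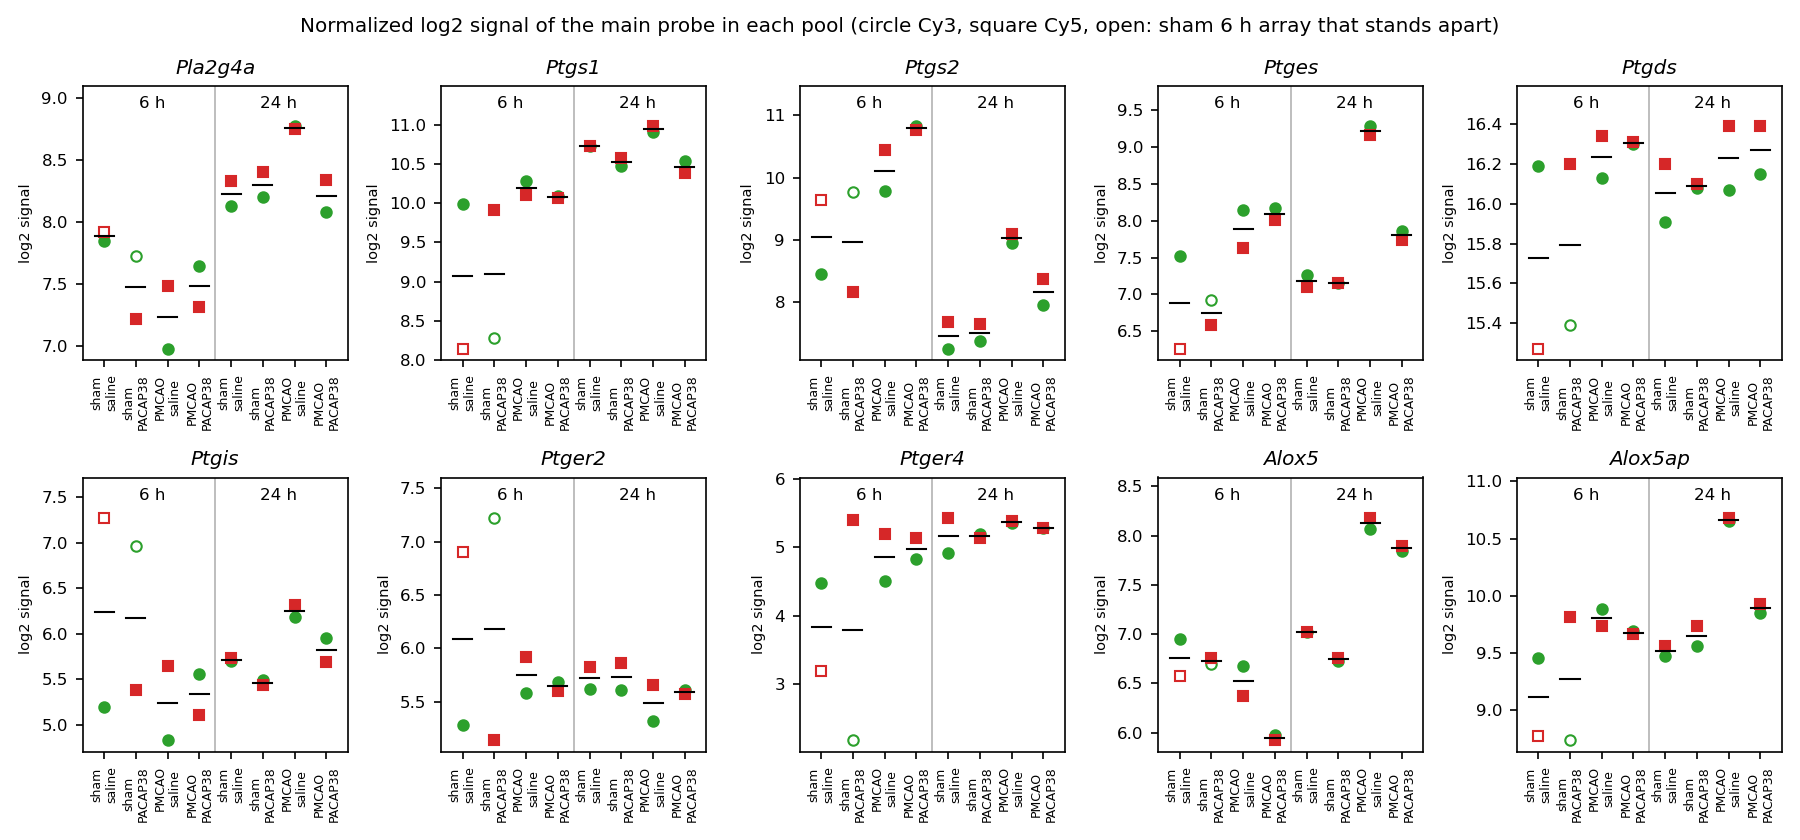
Normalized log2 signal of the first probe of each of the 10 genes in each pool, at 6 h on the left and 24 h on the right of each panel. Circles are the Cy3 channel, squares the Cy5 channel, bars their mean, and open symbols the array that stands apart. *Ptges*, *Alox5* and *Alox5ap* are highest in PMCAO with saline at 24 h, and *Ptgs2* in PMCAO with PACAP38 at 6 h.

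PACAP38 over saline for *Ptgs2* in PMCAO at 6 h was 0.98 (log2) on the array with PACAP38 in Cy5 and 0.38 on the array with PACAP38 in Cy3, with a mean of 0.68 or 1.60-fold. The second probe gave 1.02 and 0.42, with a mean of 1.65-fold. Both readings were thus past the threshold in the mean, though only the array with PACAP38 in Cy5 was past it alone. With normexp and loess in place of the processed signals of the scanner, the means were 0.54 and 0.57 on the 2 probes, below the threshold. In PMCAO at 24 h the first probe gave -0.52 and -1.10, with a mean of -0.81 or 0.570-fold, and the second gave -0.73 and -1.02, or 0.545-fold. All these values at 24 h were below the threshold. In sham the 2 arrays of a comparison differed in sign on the first probe, with -0.28 and 0.12 at 6 h, then 0.43 and -0.33 at 24 h. The means of -0.08 and 0.05 were within the thresholds. The change of sign in PMCAO between 6 h and 24 h was not tested, since each time has 1 pair of pools.

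The first probe of *Ptgs2* has 10 spots on each array, which show the error of a single array. The SD over its spots ranged from 0.08 to 0.15 (log2) on the arrays of 6 h and from 0.03 to 0.06 on those of 24 h. In PMCAO at 6 h the spots ranged from 0.85 to 1.09 on one array and from 0.18 to 0.53 on the other, and at 24 h from -0.57 to -0.48 and from -1.21 to -1.02. The difference between the 2 dye orientations was therefore larger than the spread between spots, and the sign was the same for all spots in PMCAO.

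**Figure D2:**
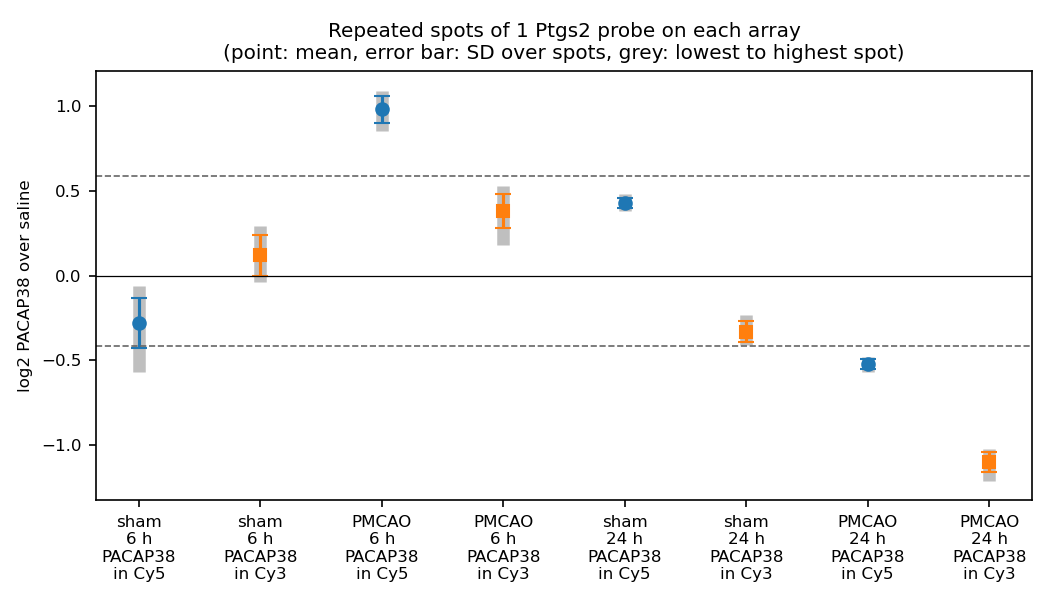
Log2 ratio of PACAP38 over saline for the repeated spots of the first *Ptgs2* probe on the 8 arrays. Points are means, error bars the SD over 9 or 10 spots, grey bars the lowest to the highest spot, and dashed lines the thresholds of 1.5-fold and 0.75-fold; all spots of PMCAO are above 0 at 6 h and below 0 at 24 h.

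The promoter of *Ptgs2* is shown because its mean ratio of PACAP38 over saline was past a threshold in PMCAO at both times, in opposite directions. In sham it was within the thresholds. PACAP receptors act through cyclic AMP, whose part in these ratios was not tested. The 250 bases before its RefSeq start (GRCm38.p6, chr1:150099781-150100030, plus strand) and the first 30 bases after it (chr1:150100031-150100060) follow, with the matches to 6 sets of letters in capitals. The cyclic AMP response element was searched for by its core TGACG. An E-box was searched for by the letters CACGTG. A site of C/EBP factors was searched for by TTGCGCAA. The GC box was searched for by GGGCGG. The search also took in the box named TATAAA and, among general promoter elements, the box CCAAT. Both strands were read, the letters were chosen with the *Ptgs2* sequence known, and matches may overlap.
Ptgs2 before the start: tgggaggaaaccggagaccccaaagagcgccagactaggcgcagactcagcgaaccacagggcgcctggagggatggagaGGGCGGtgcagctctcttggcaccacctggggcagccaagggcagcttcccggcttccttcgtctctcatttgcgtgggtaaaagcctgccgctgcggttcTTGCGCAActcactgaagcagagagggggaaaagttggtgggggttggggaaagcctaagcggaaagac
Ptgs2 after the start: agagtcaccactaCGTCACGTGgagtccgc

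The window of *Ptgs2* held TGACG on the minus strand from base 14 after the start, overlapping CACGTG from base 17, and GGGCGG and TTGCGCAA from bases 170 and 69 before the start. Among 32851 promoter windows of 300 bases, 20.8% held the core TGACG, 7.15% held the E-box, 35.7% the GC box, 13.6% the TATA box letters, 37.4% the CCAAT box and 0.183% the letters TTGCGCAA. Of 9 windows found for 8 of the 10 genes, that of *Ptgs2* was the 1 that held TGACG, the E-box or TTGCGCAA. As the letters were chosen with its sequence known, this does not set the gene apart from the others. A match is a description of letters and not of a site in use.

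*Ptges*, the inducible synthase that follows Ptgs2, had the largest log2 ratio of PACAP38 over saline in PMCAO at 24 h among the members. Its level at 24 h was 7.27 and 7.10 in sham with saline, 7.16 and 7.16 in sham with PACAP38, 9.28 and 9.16 in PMCAO with saline, and 7.86 and 7.74 in PMCAO with PACAP38. The pools of PMCAO did not overlap with those of sham, and PMCAO with PACAP38 lay between. PACAP38 over saline was -1.49 and -1.26, with a mean of -1.37 or 0.386-fold. At 6 h in PMCAO it was -0.14 and 0.53, and the 2 arrays differed in sign. In sham it was -0.94 and 0.64 at 6 h, where the second is the array that stands apart, and -0.09 and 0.03 at 24 h. The 250 bases before its start, at chr2:30903298-30903547 (GRCm38.p6, minus strand), are shown to set them beside those of *Ptgs2*, and held GGGCGG 2 times and none of the other letters.
Ptges before the start: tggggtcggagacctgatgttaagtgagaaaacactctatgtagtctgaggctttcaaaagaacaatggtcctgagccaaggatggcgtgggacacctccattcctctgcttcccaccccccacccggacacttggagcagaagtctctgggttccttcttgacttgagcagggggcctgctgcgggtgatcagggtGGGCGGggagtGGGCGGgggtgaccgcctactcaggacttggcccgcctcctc

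In the leukotriene branch, *Alox5ap* was below saline with PACAP38 in PMCAO at 24 h, whereas *Alox5* was within the thresholds there. The level of *Alox5ap* at 24 h was 9.47 and 9.56 in sham with saline, 9.56 and 9.73 in sham with PACAP38, 10.65 and 10.68 in PMCAO with saline, and 9.85 and 9.93 in PMCAO with PACAP38. Its ratio of PACAP38 over saline in PMCAO at 24 h was -0.69 and -0.80, with a mean of -0.75 or 0.595-fold. At 6 h in PMCAO it was -0.22 and -0.04, and in sham it was 0.37 and -0.05 at the earlier time, then 0.28 and -0.01 at 24 h.

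The first probe of *Alox5* had levels at 24 h of 7.02 and 7.02 in sham with saline, 6.73 and 6.76 in sham with PACAP38, 8.07 and 8.18 in PMCAO with saline, and 7.84 and 7.90 in PMCAO with PACAP38. Both pools of PMCAO were above both pools of sham. Its ratio of PACAP38 over saline in PMCAO at 24 h was -0.11 and -0.30, or 0.866-fold, and the other 2 probes gave 0.853-fold and 0.887-fold. At 6 h in PMCAO the first probe gave -0.77 and -0.41, or 0.663-fold, the second -0.37 and -1.0, or 0.622-fold, and the third 0.18 and -1.27, or 0.684-fold. The means of all 3 probes were below the threshold at 6 h, but on the third probe the arrays differed in sign. With normexp and loess the first and second gave -0.13 and -0.15, within the thresholds. The third probe was well above background in 11 of 16 channels.

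The phospholipase *Pla2g4a* and the constitutive *Ptgs1* were also below saline with PACAP38 in PMCAO at 24 h, close to the threshold. The level of *Pla2g4a* on its first probe there was 8.77 and 8.75 with saline and 8.08 and 8.34 with PACAP38, and the mean ratios of its 2 probes were 0.704-fold and 0.727-fold. On each probe only the array with PACAP38 in Cy3, of -0.63 and -0.70, was past the threshold. The level of *Ptgs1* was 10.91 and 10.98 with saline and 10.54 and 10.39 with PACAP38, and its ratio was 0.711-fold and 0.749-fold on the 2 arrays. *Pla2g4a* was also at the threshold in sham at 6 h, with a mean of 0.75-fold on the first probe, from -0.62 and -0.21, and of 0.797-fold on the second.

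The synthases of prostaglandin D2 and prostacyclin and the receptors were within the thresholds for the mean of PACAP38 over saline in all 4 comparisons. *Ptgds* had mean log2 ratios between 0.04 and 0.08, with levels of 15.91 to 16.39 at 24 h, below the saturation of the scanner. *Ptgis* had means between -0.38 and 0.11, *Ptger2* between -0.11 and 0.14, and the first probe of *Ptger4* between -0.05 and 0.14. In sham at 6 h, *Ptger4* had 0.96 and -0.88, but its signal with saline was not well above background in either dye, so that these give no fold. The prostacyclin synthase came nearest to a threshold, with 0.770-fold in PMCAO at 24 h.

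**Figure D3:**
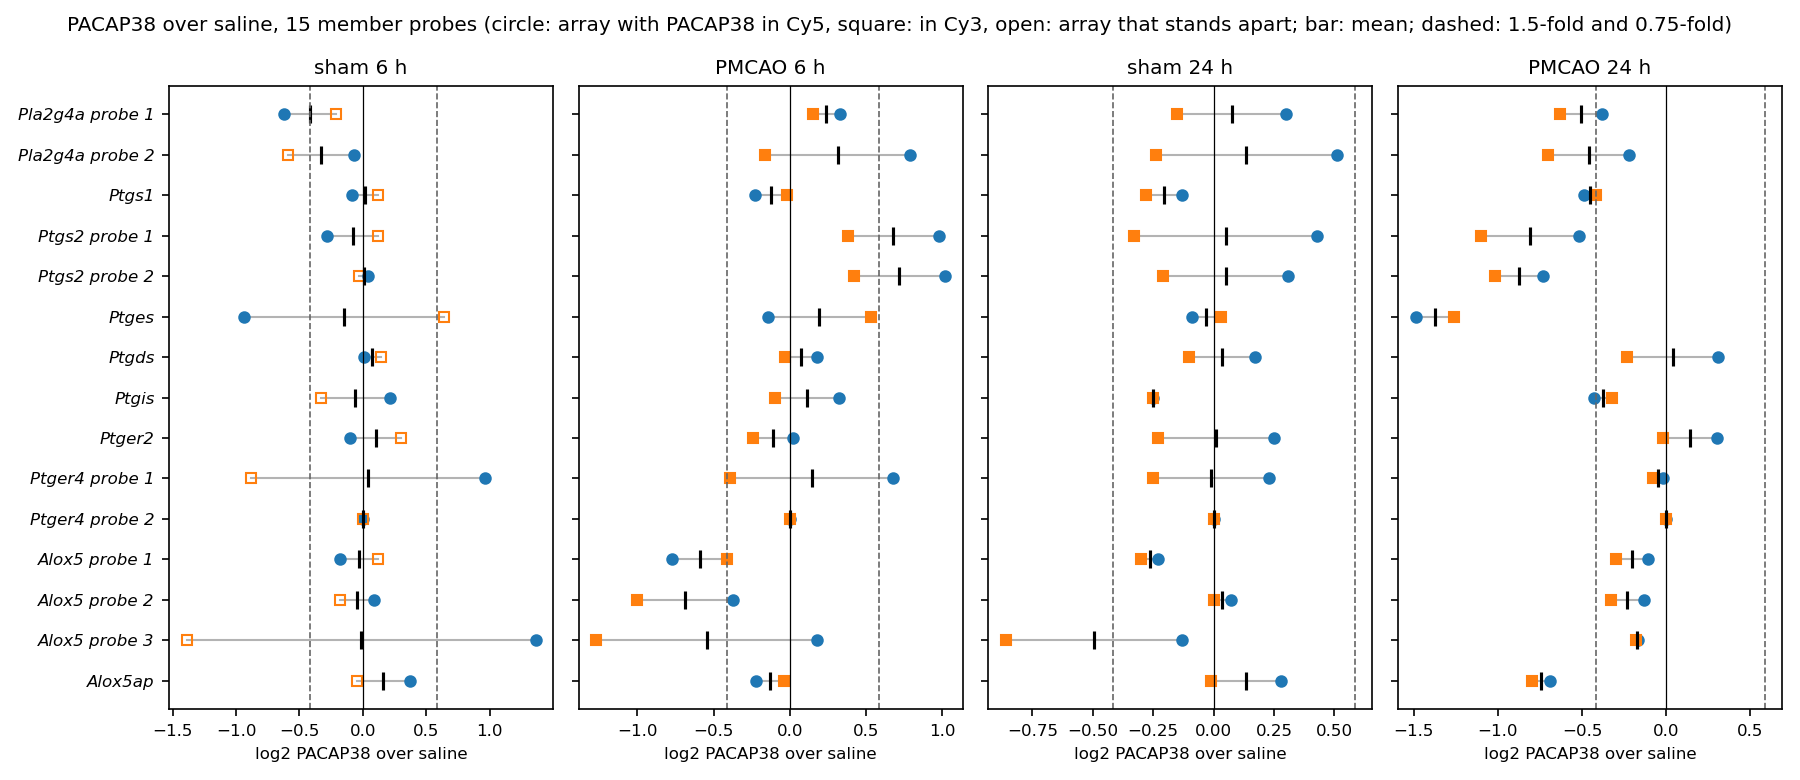
Log2 ratio of PACAP38 over saline for the 15 probes in the 4 comparisons. Circles are the array with PACAP38 in Cy5, squares the array with PACAP38 in Cy3, open symbols the array that stands apart, bars the mean, and dashed lines 1.5-fold and 0.75-fold; in PMCAO at 24 h, 5 probes are below 0.75-fold on both arrays.

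In PMCAO at 24 h, 7 of 15 member probes were downregulated with PACAP38, against 8.18% of all probes, and 0 were upregulated, against 2.99%. The 7 probes belong to *Pla2g4a*, *Ptgs1*, *Ptgs2*, *Ptges* and *Alox5ap*, which are 5 of the 10 genes, and 5 of the 7 were past the threshold on both arrays. The median log2 ratio was -0.38 over the member probes and 0.00 over all probes. In PMCAO at 6 h, 2 were upregulated, both of *Ptgs2*, against 5.41% of all probes, and 3 were downregulated, all of *Alox5*, against 6.90%. None of these 5 was past the threshold on both arrays. In sham at 6 h, 0 were upregulated against 3.98% of all probes, and 1 was downregulated against 7.48%. Without the array that stands apart, both counts in sham at 6 h were 2, against 6.67% and 10.3% of all probes, with *Ptger4* and the third probe of *Alox5* above saline and *Pla2g4a* and *Ptges* below. The ratio of *Ptger4* is there over a signal not well above background. In sham at 24 h, 0 were upregulated against 1.75%, and 1 was downregulated against 3.87%, the third probe of *Alox5*.

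Markers of neutrophils were also below saline with PACAP38 in PMCAO at 24 h. The log2 of their summed signal was 15.63 in PMCAO with saline at 24 h and 12.56 in PMCAO with PACAP38, against 9.59 and 10.14 in sham. Leaving out *Camp*, all 7 markers were below 0.75-fold with PACAP38 in PMCAO at 24 h, with a median log2 ratio of -3.08 and a range from -3.38 to -1.80, and 2 of them were well above background in all channels. Of 6 markers of monocytes and macrophages, 3 were below the threshold, with a median of -0.47 and a range from -2.25 to -0.30, and a summed signal of 13.96 with saline and 13.03 with PACAP38. Of 7 microglial markers 0 were past a threshold, with a median of -0.06. Among 6 endothelial markers 4 were below the threshold and 1 above, with a median of -0.45 and a range from -1.37 to 0.90. For oligodendrocytes 2 of 4 were below it (median -0.41), for choroid plexus 2 of 5 (-0.37) and for leptomeninges 2 of 7 (-0.22). No marker of mast cells, astrocytes or neurons was past a threshold. Of the 5 mast cell markers 0 were well above background in all channels, so their ratios say little. In the same comparison the 3 probes of *Alox5* were between 0.853-fold and 0.887-fold. The part of any of these cell types in the ratios of *Ptges*, *Ptgs2*, *Alox5ap* and *Alox5* was not tested. In PMCAO at 6 h, 3 of these 7 neutrophil markers were above 1.5-fold with PACAP38 and 1 was below 0.75-fold, with a median of 0.57.

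**Figure D4:**
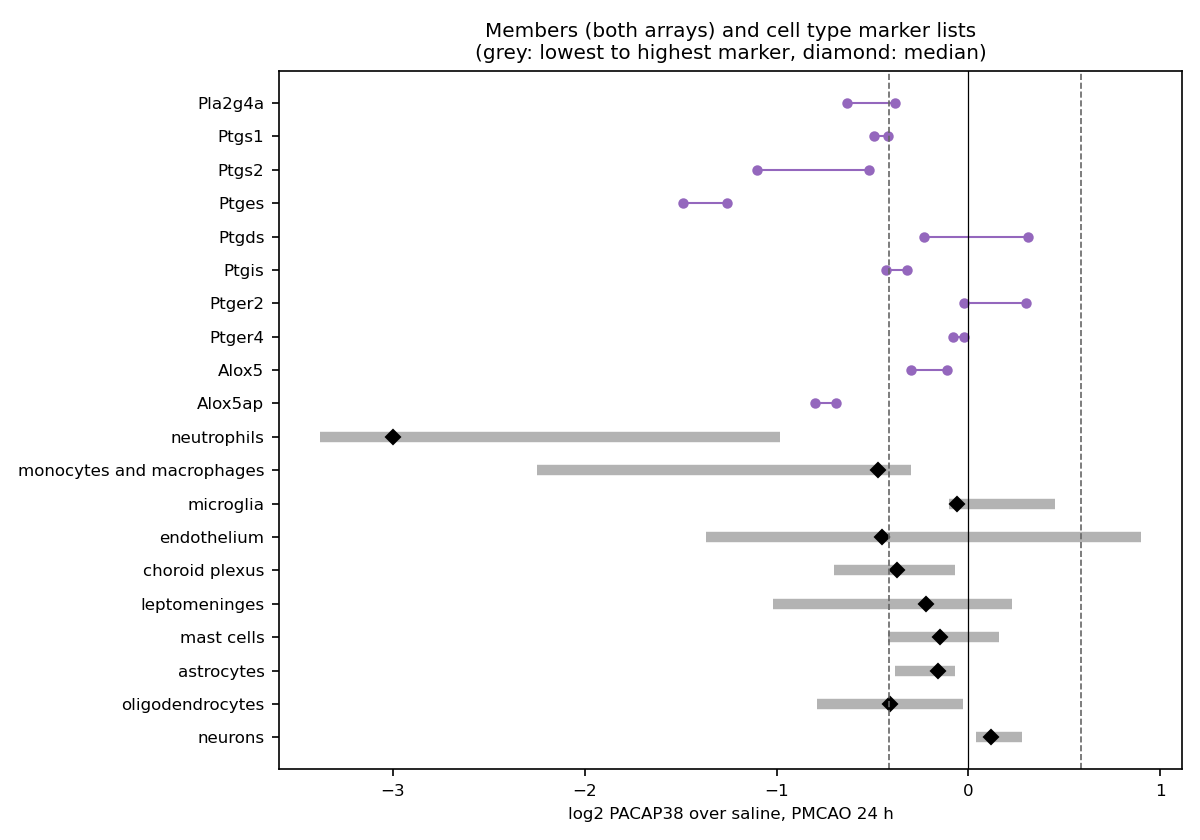
Log2 ratio of PACAP38 over saline in PMCAO at 24 h for the first probe of each member, as the values of both arrays joined by a line, and for 10 lists of cell type markers, as the range (grey) and median (diamond) of their genes. Neutrophil markers lie from -3.38 to -0.98, the last being *Camp*, not well above background. The other 7 lie from -3.38 to -1.80, below the values of all members.

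Over the 4 pairs of pools, limma tested the mean of PACAP38 over saline, which measures only what sham and PMCAO, and 6 h and 24 h, have in common. With Benjamini-Hochberg adjustment, 0 of 36121 probes were called (0%), and 4.93% had an unadjusted p under 0.05. Of the 15 member probes, *Ptgds* was the 1 with an unadjusted limma p under 0.05, and its adjusted limma p was 0.871. Its mean log2 ratio was 0.06 ± 0.02 (SE, n = 4 pairs of pools), positive in 4 of 4. Without the array that stands apart the unadjusted limma p was 0.122 for *Ptgds*, 0.0495 for *Ptgs1* and 0.0255 for the first probe of *Alox5*, with an adjusted p of 0.902 for all of them. For *Ptgs2* the mean was -0.04 ± 0.27 and for *Ptges* -0.34 ± 0.31, and the adjusted p by limma was 1.00 and 0.871.

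PMCAO was then compared with sham at each time, within saline and within PACAP38 pools, from channels of the same dye. These comparisons share no pools, but saline and PACAP38 pools lay on the same arrays, and each pool also enters one of the ratios of PACAP38 over saline above. At 24 h *Ptgs2*, *Ptges*, *Alox5* and *Alox5ap* were upregulated by PMCAO with saline. *Ptgs2* had log2 differences of 1.70 in Cy3 and 1.42 in Cy5 on the first probe, a mean of 2.95-fold, and of 3.14-fold on the second. *Ptges* had 2.01 and 2.06, or 4.09-fold, and *Alox5ap* 1.18 and 1.12, or 2.23-fold. Both dyes gave the same direction for all of them.

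For *Alox5* at 24 h in saline pools the first probe gave 2.16-fold and the third 2.17-fold. The second probe was not well above background in sham on the array with PACAP38 in Cy3, at levels of 2.04 and 1.92, against 7.42 and 7.47 on the other array. Its log2 differences were 1.26 and 6.81 in saline pools and 6.56 and 1.04 in PACAP38 pools, so that 1 array decides its mean. The remaining values of 1.26 and 1.04 are close to those of the first probe, which shares 20 of its bases and gave 1.11 and 1.12 in the mean.

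With PACAP38 the PMCAO differences at 24 h were smaller for *Ptgs2*, *Ptges* and *Alox5ap* and alike for *Alox5*. *Ptgs2* was at 1.58-fold and 1.61-fold on its 2 probes, *Ptges* at 1.56-fold, and *Alox5ap* at 1.18-fold, within the thresholds. With normexp and loess *Ptgs2* gave log2 differences of 0.37 and 0.39 with PACAP38 and *Ptges* gave 0.30, which are within the thresholds. *Alox5* was at 2.18-fold on the first probe. Whether the differences with saline and with PACAP38 are unequal could not be tested, as each rests on 1 pair of pools. *Pla2g4a* was at 1.45-fold and 1.47-fold with saline and 0.937-fold on both probes with PACAP38, and *Ptgis* at 1.45-fold and 1.28-fold. *Ptgs1*, *Ptgds*, *Ptger2* and *Ptger4* were between 0.850-fold and 1.16-fold.

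At 24 h, 7 of 15 member probes were upregulated by PMCAO in saline pools, against 8.46% of all probes, and 0 were downregulated, against 14.6%. In PACAP38 pools 6 were upregulated, against 5.59%, and 0 downregulated, against 10.3%. In both cases the probes were those of *Ptgs2*, *Ptges* and *Alox5*, with *Alox5ap* in saline pools only. In the saline pools 6 of the 7 neutrophil markers were above the threshold, with a median log2 difference of 5.15, and in the PACAP38 pools 5, with a median of 2.37; their part in these results was not tested.

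**Figure D5:**
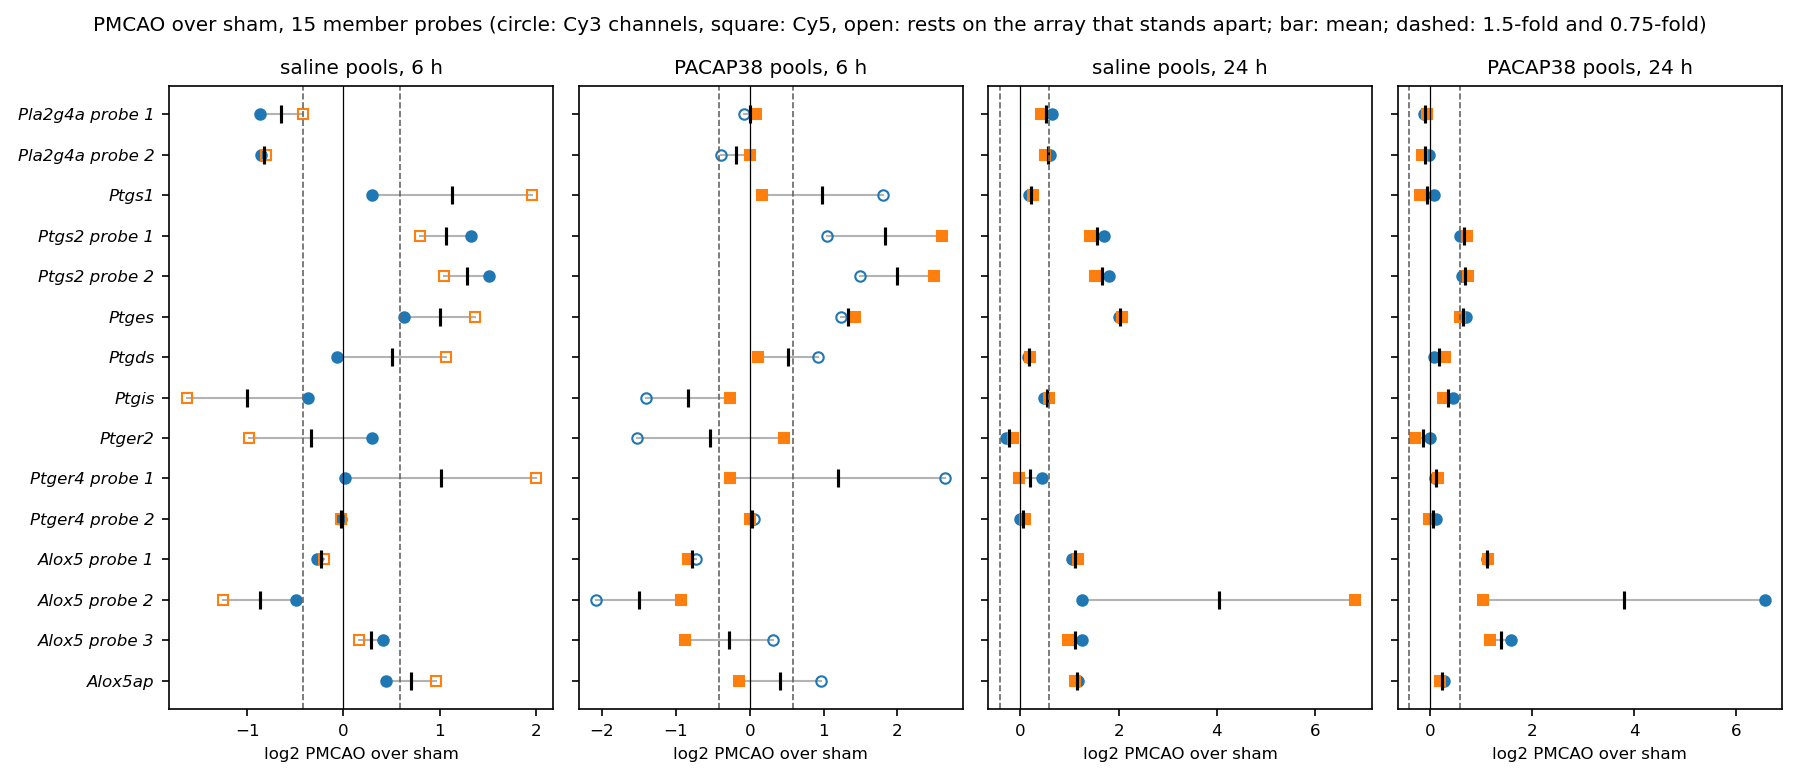
Log2 difference of PMCAO over sham for the 15 probes, from Cy3 channels (circles) and Cy5 channels (squares), with the mean as a bar and dashed lines at 1.5-fold and 0.75-fold. Open symbols rest on the array that stands apart; at 24 h the 2 dyes lie close together for all probes but the second of *Alox5*.

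At 6 h the size of the PMCAO differences depended on the array that stands apart. *Ptgs1* was at 2.19-fold with saline and 1.98-fold with PACAP38 over both dyes, but at 1.23-fold and 1.12-fold without that array. *Alox5ap* was likewise at 1.62-fold and 1.32-fold with it and at 1.35-fold and 0.903-fold without it. For *Ptgis*, the log2 differences of -1.0 and -0.83 became -0.37 and -0.27. For the first probe of *Ptger4*, not well above background in sham with saline in either dye, those of 1.01 and 1.19 became 0.02 and -0.27, and for *Ptger2* those of -0.34 and -0.53 became 0.30 and 0.46. All these values without the array were within the thresholds.

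*Ptgs2* and *Ptges* were upregulated by PMCAO at 6 h with and without that array. *Ptgs2* was at 2.09-fold with saline and 3.55-fold with PACAP38 on the first probe, and without the array at 2.51-fold and 6.06-fold. The second probe without the array gave 2.84-fold and 5.62-fold. *Ptges* was at 2.00-fold and 2.52-fold, and without the array at 1.54-fold and 2.69-fold. With normexp and loess and all arrays, its log2 difference with saline was 0.56, just within the thresholds. The first probe of *Alox5* was below sham with PACAP38, at 0.579-fold and without the array at 0.558-fold, and within the thresholds with saline. *Pla2g4a* was below sham with saline, at 0.638-fold and 0.563-fold on its 2 probes, and without the array at 0.546-fold and 0.551-fold. With normexp and loess, *Alox5* with PACAP38 gave -0.20 and *Pla2g4a* with saline -0.37 and -0.31, all within the thresholds. *Ptgds* was within the thresholds either way.

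With all arrays, 6 of 15 member probes were upregulated and 4 downregulated by PMCAO at 6 h in saline pools, against 22.7% and 27.7% of all probes, and 5 and 4 in PACAP38 pools, against 18.5% and 25.3%. Without the array that stands apart, 3 were upregulated and 3 downregulated in saline pools, against 14.1% and 21.1% of all probes, and 3 and 3 in PACAP38 pools, against 11.0% and 17.3%. The 3 upregulated probes were both of *Ptgs2* and that of *Ptges* in each case. The downregulated ones were both of *Pla2g4a* and the second of *Alox5* with saline, and the 3 of *Alox5* with PACAP38, of which the third was within the thresholds with all arrays. Without that array, 6 of the 7 neutrophil markers were above the threshold at 6 h with saline and 5 with PACAP38, with medians of 2.26 and 2.85; their part was not tested.

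Over all 8 pools, limma tested the mean difference of PMCAO and sham, with time and drug as covariates and the pools that shared arrays as a block. By Benjamini-Hochberg adjustment 0 of 36121 probes were called (0%), and 12.6% had an unadjusted p under 0.05. The first probe of *Ptgs2* had a mean level of 8.25 in sham and 9.53 in PMCAO, a difference of 1.28 ± 0.49 (SE, n = 4 pools each), higher in 4 of 4 pairs, with an adjusted limma p of 0.395. *Ptges* had 7.0 and 8.25, a difference of 1.25 ± 0.55, also higher in 4 of 4 pairs, with an adjusted limma p of 0.402. Without the array that stands apart these differences were 1.54 ± 0.36 and 1.18 ± 0.28, and the adjusted limma p was 0.182 and 0.186. The other members had adjusted limma p-values of 0.395 or more, and of 0.428 or more without that array, apart from the second probe of *Ptgs2* (1.40 ± 0.52, and 1.58 ± 0.36 with an adjusted limma p of 0.182).

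The pools of PMCAO and sham did not overlap over both times and drugs for 3 of 15 member probes, those of *Ptges*, *Alox5ap* and *Ptgds*, against 15% of all probes. Without the array that stands apart this held for 1 probe, that of *Ptges*, against 8.63% of all probes. The levels of *Ptges* then ranged from 6.58 to 7.52 in sham and from 7.80 to 9.22 in PMCAO. For *Ptgs2* the ranges overlapped, since its level was higher at 6 h than at 24 h in both sham and PMCAO.

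Of the other genes of the pathway, a list of 54 genes with 88 probes was followed by the same measures. In PMCAO at 24 h, 2 of its 88 probes were upregulated and 10 downregulated with PACAP38, that is 2.27% and 11.4%, beside 2.99% and 8.18% of all probes. The leukotriene B4 receptor *Ltb4r1* was downregulated on both arrays, with -0.97 and -0.99, as was the prostacyclin receptor *Ptgir*, with -1.35 and -0.94, and the leukotriene receptor *Cysltr2*, with -0.85 and -0.83. The prostaglandin transporter *Slco2a1* gave -0.45 and -0.50 on one probe, and its other probe was within the thresholds. *Akr1c18*, a hydroxysteroid dehydrogenase that also makes prostaglandin F, was upregulated, with 0.77 and 0.68. The other probe of *Ptgir* was not well above background at 24 h and the one reported was not at 6 h, so that neither follows the gene over both times.

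In the other comparisons of PACAP38 over saline, 6 probes of the list were up and 6 down in sham at 6 h, of 78 with a value on both arrays, or 7.69% each beside 3.98% and 7.48% of all probes. With the array that stands apart left out they were 7 and 13 of 85, or 8.24% and 15.3% beside 6.67% and 10.3%. In PMCAO at 6 h 1 was up and 7 were down, of 85, or 1.18% and 8.24% beside 5.41% and 6.90%. In sham at 24 h 1 was up and 1 down, of 88, or 1.14% each beside 1.75% and 3.87%. In sham at 6 h the hematopoietic prostaglandin D synthase *Hpgds* was down on both arrays, with -0.52 and -0.44. In PMCAO at 6 h the lipoxygenase *Alox12b* was down on one probe, with -0.55 and -0.90. Its other probe had mean ratios from -0.16 to 0.21 over the 4 comparisons, within the thresholds. The secreted phospholipase *Pla2g3* was down on its brighter probe, with -0.60 and -0.59, and its other probe had levels of 4.72 with saline and 4.36 with PACAP38. In these comparisons no other probe of the list was past the threshold on both arrays with its brighter group well above background.

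By PMCAO at 24 h, 11 of the 88 probes were upregulated and 11 downregulated in saline pools, or 12.5% each beside 8.46% and 14.6% of all probes. In PACAP38 pools they were 6 and 15, or 6.82% and 17.0% beside 5.59% and 10.3%. *Pla2g3* was at 4.43-fold with saline and 4.60-fold with PACAP38 on its brighter probe, *Ltb4r1* at 4.24-fold and 2.02-fold, and the microsomal glutathione transferase *Mgst2*, which can make leukotriene C4, at 2.40-fold and 2.05-fold. *Ptgir* was at 2.55-fold with saline, and *Cysltr2* at 1.95-fold. The lipoxygenase *Alox12* was at 0.543-fold with PACAP38. *Ltb4r1*, like *Alox5ap* and *Ptges*, was thus upregulated with saline and nearer to sham with PACAP38, whereas *Pla2g3* and *Mgst2*, like *Alox5*, were at similar levels in both.

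At 6 h, 21 of 78 probes of the list were above sham and 26 below with saline, or 26.9% and 33.3% beside 22.7% and 27.7% of all probes. With PACAP38 they were 13 and 21, or 16.7% and 26.9% beside 18.5% and 25.3%. Without the array that stands apart, 13 of 85 were above and 26 below with saline, or 15.3% and 30.6% beside 14.1% and 21.1% of all probes, and 9 and 26 with PACAP38, or 10.6% and 30.6% beside 11.0% and 17.3%. *Ltb4r1* had log2 differences of 1.75 and 1.01 without that array, and 1.45 and 1.16 with it. *Cysltr2* had 1.37 and 1.08, and was not well above background in sham with saline, so that PMCAO was at least 2.01-fold higher there over both arrays. The prostaglandin-degrading dehydrogenase *Hpgd* had -0.92 and -0.99 with saline and -1.12 and -1.51 with PACAP38 on 2 probes, without that array. The leukotriene receptor *Cysltr1* had -2.14 and -1.53 on one probe and -0.61 and -1.22 on the other, with saline and PACAP38. In PMCAO both of its probes were well above background in only 1 of the 2 dyes, as was the other probe in sham with saline. The receptor *Ptgfr* had -2.23 and -0.93 on its brighter probe, which in PMCAO was well above background in only 1 of the 2 dyes. The phospholipase *Pla2g2d* had -1.17 with saline and 0.01 with PACAP38.

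Over the 8 pools, limma with Benjamini-Hochberg adjustment called 0 of the 78 tested probes of the list, and 17 had an unadjusted p under 0.05 for PMCAO over sham, or 21.8% beside 12.6% of all probes. *Ltb4r1* had a mean difference of 1.43 ± 0.38 (SE, n = 4 pools each) and an adjusted limma p of 0.395.

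The genes with the pattern most like a member were taken as those with the highest Pearson correlation over the 8 pool levels, among 22797 probes, as a description. For *Ptgs2* these were *Mapk6*, *Degs1*, *Stard4*, *Bpnt1* and *Tmem120a*, with 0.981 to 0.994. For *Ptges* they were *Lilra6*, *Tnfaip2*, *Hilpda*, *Synpo* and *Rhoc*, with 0.985 to 0.989, and for *Alox5ap* *Rhbdf2*, *Smg6*, *H2-Q1*, *Nfkbie* and *Bmp7*, with 0.984 to 0.995. Pools share arrays, and sham at 6 h includes the array that stands apart. Without it the correlations of the same genes were 0.744 to 0.906 for *Ptgs2*, 0.927 to 0.968 for *Ptges* and 0.861 to 0.975 for *Alox5ap*, over 26841 probes, and of the 15 genes *Smg6*, second for *Alox5ap*, was the 1 that stayed among the first 5 probes.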

How the data were processed

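The authors scanned 8 two-colour arrays, and Feature Extraction (9.5.1.1 at 6 h, 9.5.3.1 at 24 h by the file headers) wrote the deposited files. The deposited log10 ratio gives Cy5 over Cy3 per spot, and the deposited intensity columns hold mean, background and processed signals, beside deposited flags for outliers and for signals well above background. The deposited table of ratios holds the same values as a score, with a minus sign where PACAP38 was in Cy3 and column medians from -0.971 to 1.01. Second copies of 3 files were identical and left out.

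Control and outlier spots were left out and spots of one probe averaged. Ratios were turned to PACAP38 over saline on the log2 scale and averaged over the 2 arrays. The series numbers these arrays like different pools, but by the methods they carry one RNA. For PMCAO over sham, processed signals were normalized by loess and Aquantile (limma 3.58.1, R 4.3.3). Where a group was not well above background in either dye, the fold is a bound against the lowest signal well above background. Tests were limma fits over all probes, with Benjamini-Hochberg adjustment at 0.05. On simulated data they were checked for the mean of known folds. There the pools that shared arrays were less correlated than in these data (0.641), so that check does not measure the power here. RefSeq (GRCm38.p6) named 22951 probes and gave the promoters. Other genes of the pathway were named where both arrays or dyes were past the threshold, at most 5 probes per comparison. The number of pools limits the precision. The members and lists were chosen with earlier results of these data known, and the values without the array that stands apart were added after seeing the data. Tables and plots were made with Python 3.11.15, pandas 2.3.3 and matplotlib 3.10.9.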

Additional observations from a re-analysis of the deposited data

Results flagged for a closer look

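Some member effects had opposite signs in 2 conditions, with both arrays or both dyes on the same side of 0 in each. None of these differences was tested. For PACAP38 over saline in PMCAO, the log2 ratio at 6 h minus that at 24 h was 1.49 and 1.60 on the 2 probes of *Ptgs2*, from 0.68 and 0.72 at 6 h to -0.81 and -0.87 at 24 h, and 0.74 on the first probe of *Pla2g4a*, from 0.24 to -0.51. At 6 h the ratio in PMCAO minus that in sham was 0.65 on the first probe of *Pla2g4a*, where sham includes the array that stands apart and its other array alone gave -0.62. The second probe of *Pla2g4a* had arrays of opposite sign in PMCAO at 6 h, with 0.79 and -0.16. In sham at 6 h that probe gave -0.07 without the array that stands apart.

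For PMCAO over sham, the log2 difference at 6 h minus that at 24 h was -1.18 and -1.38 on the 2 probes of *Pla2g4a* in saline pools. For *Ptgis* it was -1.53 in saline pools and -1.19 in PACAP38 pools, and its difference at 6 h was largely that of the array that stands apart. For *Alox5* it was -1.34 and -1.91 on the first probe in saline and PACAP38 pools, and -4.90 and -5.31 on the second, where 1 array of sham at 24 h decides the value. Time and slide cannot be told apart in any of these.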

How the results depend on the processing

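No paired analysis was possible by replicate number, because the numbers mark the 2 dye orientations of the same pooled RNA and link no pools across groups; the pairs and the block of the limma fits are pools that shared arrays. In all limma fits, with or without the block of pools that shared arrays, 0 member probes were called. Without that block, limma called 203 probes up and 147 down for PMCAO over sham. Counts of member probes past a threshold moved by over 1.5 times as follows. Normexp and loess left 0 for PACAP38 over saline in sham at either time and 0 for PMCAO at 6 h, and for PMCAO over sham they left 5 in saline pools at 6 h and 2 in PACAP38 pools at 24 h. With them the ratio of the first *Ptgs2* probe in PMCAO was 0.54 at 6 h and -0.74 at 24 h. Required of both arrays, the threshold left 0 probes for sham at either time and 0 for PMCAO at 6 h. With 1.5-fold in both directions the counts were 0 for sham at either time and 4 for PMCAO at 24 h, and with the deposited table of ratios the count was 0 for sham at 6 h. Counts on single arrays are given with PACAP38 in Cy5 first and in Cy3 second. PACAP38 over saline gave 4 and 4 probes for sham and 5 and 2 for PMCAO at 6 h. At 24 h it gave 0 and 1 for sham and 6 and 7 for PMCAO. PMCAO over sham in saline pools at 6 h gave 6 in Cy3 and 12 in Cy5, and 6, in place of 10, without the array that stands apart. Of all probes, 22.7% were up and 27.7% down there over both dyes, and 14.1% and 21.1% without that array. For PACAP38 over saline in sham at 6 h with PACAP38 in Cy5 the shares were 6.67% and 10.3%. Shares of all probes for the other counts on single arrays or dyes are not given, so those counts describe the members only. The sign changed on a single dye for *Ptger2* (0.46) and the first probe of *Ptger4* (-0.27) in PMCAO over sham with PACAP38 at 6 h, and on single arrays for the third probe of *Alox5* in PMCAO at 6 h, which ranged from -1.27 to 0.18. The causes were not tested. Low signals limit *Ptger4* and the third probe of *Alox5*, and the number of pools limits all tests.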
